A study of Homo sapiens with 18 samples.

Results

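The metalloproteases of the MMP, ADAM and ADAMTS families and their inhibitors, the TIMPs, were followed in 2 lines of triple-negative breast cancer (TNBC). Members were chosen by gene symbol alone, and 69 of the 25721 genes listed in any of the 3 tables matched (24 MMP, 22 ADAM, 19 ADAMTS and 4 TIMP genes). Of these, 31 had at least 1 TPM (a transcript level corrected for transcript length and scaled to a fixed total) in at least 3 columns of a table, and 15 did so in every table. RNA-seq covered 18 libraries, 3 for each of 6 groups. The BRCA1 wild-type line BT-549 carried a stable PBRM1shRNA or a stable IRF1shRNA, and each silenced line had a control shRNA group of its own. The BRCA1-mutant line MDA-MB-436 carried a tetracycline-inducible MUC1shRNA and was treated with doxycycline (DOX) at 500 ng/ml, against vehicle (0.1% DMSO). The hairpin vectors were selected with puromycin, and each group stands for 3 cultures of its line, so p-values rest on the spread between cultures. In the main fit of each BT-549 experiment that spread was taken from genes of like expression level, not from each gene alone. A DOX group with a control shRNA is not among the samples, so that the effect of the drug and that of the hairpin cannot be told apart.

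MMPs are secreted or membrane-bound zinc proteases that cut collagens, gelatin and other matrix proteins, and most are made as inactive precursors. ADAMs are membrane proteases that release growth factors, cytokines and receptors from the cell surface, whereas ADAMTSs are secreted and process procollagens and large proteoglycans such as versican and aggrecan. TIMPs bind the active site of these enzymes, and in breast tumours the balance between proteases and TIMPs is known for its part in invasion and in the release of EGF receptor ligands.

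Groups were compared by limma on log2(TPM + 1), adjusted by Benjamini-Hochberg over all genes tested in a table, and genes "rose" or "fell" at an adjusted p under 0.05. The fold is silenced over control on that scale, which understates changes of low genes. Short noncoding RNAs took 75.6% to 79.2% of TPM in the PBRM1 libraries, 84.8% to 88.5% in the IRF1 libraries and 12% to 15.2% in MDA-MB-436, so that levels cannot be set across tables. The targeted transcripts were lower as labelled: PBRM1 averaged 2.96 TPM in PBRM1shRNA cells and 11.9 TPM in control cells, IRF1 1.17 TPM in IRF1shRNA cells and 4.75 TPM in control cells, and MUC1 3.03 TPM with DOX and 5.63 TPM with vehicle. ESR1, which TNBC lines lack, was at most 0.106 TPM. The mesenchymal marker VIM averaged 415 TPM in PBRM1shRNA cells and 349 TPM in their controls, 208 TPM in IRF1shRNA cells and 314 TPM in their controls, and 1025 TPM with DOX and 1807 TPM with vehicle. Of the other targets, IRF1 and MUC1 fell with PBRM1shRNA (7.46 TPM against 24.4 TPM and 18.5 TPM against 27.5 TPM in control cells) and PBRM1 with DOX (15.1 TPM against 23.4 TPM with vehicle). PBRM1 and MUC1 with IRF1shRNA and IRF1 with DOX did not pass the test (log2 folds of 0.02, -0.08 and 0.04; limma adjusted p of 0.96, 0.74 and 0.77). Of 14 leukocyte markers only CD68 passed the filter in BT-549 and CD14 and CD68 in MDA-MB-436, and T-cell CD3E was at 0 in every library. Summed over 13 genes, mesenchymal or basal markers were at 1238 to 1323 TPM in PBRM1shRNA cells against 1302 to 1486 TPM in their controls, at 392 to 484 TPM in IRF1shRNA cells against 507 to 669.5 TPM, and at 2731 to 2849 TPM with DOX against 3343 to 3549 TPM with vehicle. These sums include VIM, and the single genes did not all move together. Of 10 tested, 3 rose and 4 fell with PBRM1shRNA, 0 and 4 with IRF1shRNA, and 4 and 5 with DOX. Among all genes tested 24.6% rose and 34.8% fell with PBRM1shRNA, 5.76% and 18.5% with IRF1shRNA, and 27.0% and 23.4% with DOX. Of the markers of luminal epithelium, 2 rose and 0 fell of 4 tested with PBRM1shRNA. With IRF1shRNA 0 rose and 3 fell of 3, and with DOX 6 rose and 1 fell of 8. Summed over 11 genes they were at 59.2 to 68.6 TPM in PBRM1shRNA cells against 32.1 to 35.7 TPM in their controls, at 7.06 to 7.79 TPM in IRF1shRNA cells against 19.2 to 25.2 TPM, and at 1677 to 1755 TPM with DOX against 866 to 896 TPM with vehicle. Their part in the results below was not tested.

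A few members made up most of the protease and inhibitor transcripts. In BT-549 cells of the PBRM1 experiment MMP14 (MT1-MMP, a membrane collagenase that activates pro-MMP2) averaged 212 TPM in silenced and 138 TPM in control cells, ADAM9 140.4 and 144 TPM, and TIMP1 99.7 and 170.1 TPM. Among all genes tested these levels lay at percentiles of 96.3 to 98.4. In the second BT-549 experiment the highest members were TIMP1 (119 TPM in IRF1shRNA cells and 103 TPM in control cells), MMP14 (41.6 and 45.8 TPM) and ADAM9 (38.2 and 31.9 TPM). MDA-MB-436 cells differed in this order within their own table, with TIMP1 at 564 TPM with DOX and 587 TPM with vehicle and MMP14 at only 2.91 and 3.88 TPM. As a share of the summed TPM of the 69 genes, which 1 scaling factor per library leaves as it is, the TIMPs took 67.7% with DOX and 67.0% with vehicle in MDA-MB-436, 51.0% in IRF1shRNA cells and 46.5% in their controls, and 23.6% in PBRM1shRNA cells and 35.4% in their controls. Only in the PBRM1 experiment were the groups apart (23.3% to 24.1% against 35.0% to 35.8%). In the IRF1 experiment they overlapped (49.4% to 52.4% against 44.1% to 49.7%), as in MDA-MB-436.

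**Figure D1:**
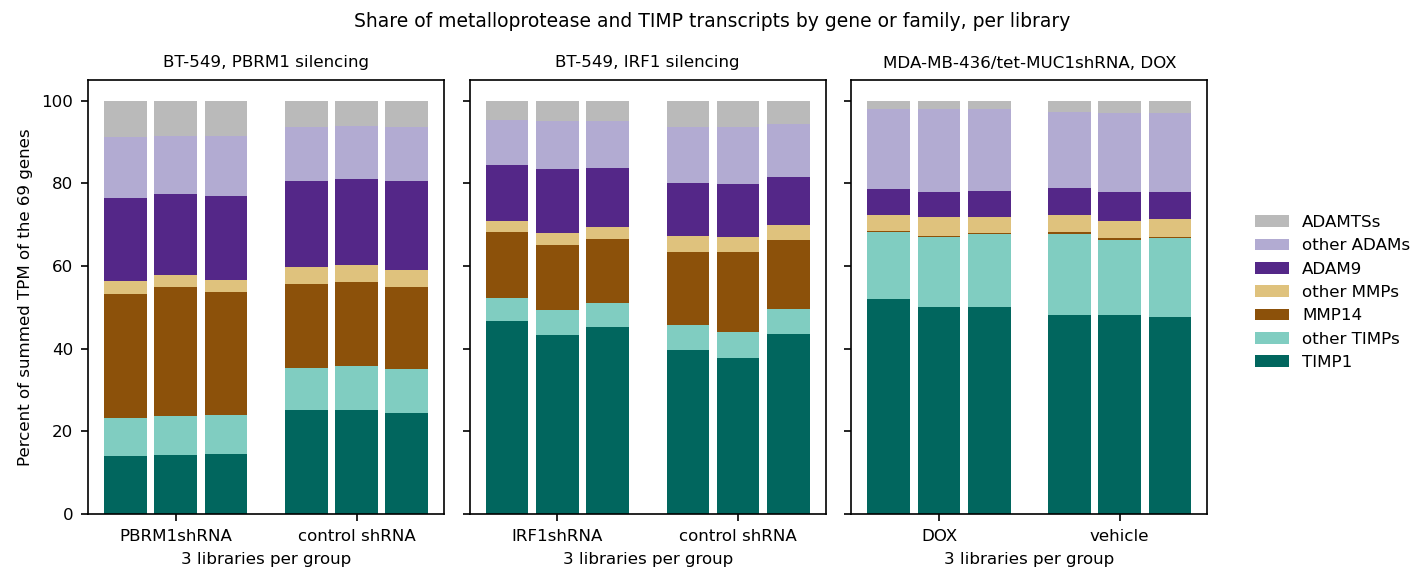
Percent of the summed TPM of the 69 genes (vertical axis) taken by named genes or families in each library, 1 bar per library, with the silenced or DOX-treated libraries left of the control libraries in each panel. TIMP1 is the largest part in the IRF1 and MDA-MB-436 panels, and in the PBRM1 panel the MMP14 part is larger and the TIMP1 part smaller in all 3 PBRM1shRNA libraries.

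The first question was how silencing of PBRM1, a bromodomain subunit of the PBAF chromatin remodelling complex, changed these genes in BT-549 cells. Collagenase MMP1, gelatinase MMP2, TIMP1 and TIMP3 fell, whereas MMP14 and MMP16, the sheddases ADAM10, ADAM17 and ADAM19 and 4 ADAMTS genes rose. Of 21 members tested, 10 rose and 8 fell. Among all genes tested 24.6% rose and 34.8% fell, and the median log2 fold was 0.01 over the members and -0.05 over all genes. In 17 of 21 members the groups did not overlap, as in 62.0% of all genes. With a fold above 2 on the log2(TPM + 1) scale as a further condition, 4 members were called higher and 3 lower (1.02% and 3.86% of all genes). MMP1 and MMP2 passed the filter only through their control libraries, where they were high, and without them 10 rose and 6 fell of 19. Fitted with no filter on low values, both also fell (limma adjusted p of 5.3e-07 and 2.6e-05).

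MMP1 (interstitial collagenase; chromosome 11, 102789920 to 102798160, minus strand, GRCh38) was at 0.853, 0.823 and 0.835 TPM in PBRM1shRNA cells against 15.1, 14.1 and 15.7 TPM in control cells. Every silenced library was far below every control library, a TPM ratio of 17.9 and a log2 fold of -3.12 ± 0.087 (SE, n = 3 each). MMP2 (gelatinase A) was at 0.674, 0.533 and 0.602 TPM in silenced cells against 3.43, 2.89 and 3.28 TPM in control cells, and again the groups did not overlap (log2 fold -1.39 ± 0.077). MMP14 (chromosome 14, 22836557 to 22849027, plus strand), by contrast, was at 217, 212 and 207 TPM in PBRM1shRNA cells against 143, 128 and 142 TPM in control cells. All silenced libraries were higher, with a log2 fold of 0.62 ± 0.085. MMP16 (MT3-MMP, which like MMP14 is anchored in the membrane) rose further, at 16.3, 14 and 15.5 TPM in silenced against 5.54, 4.78 and 6.01 TPM in control cells (log2 fold 1.34 ± 0.088). The GPI-anchored MMP17 overlapped between groups and did not pass the test, at 1.60 ± 0.032 TPM in silenced and 1.58 ± 0.079 TPM in control cells.

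**Figure D2:**
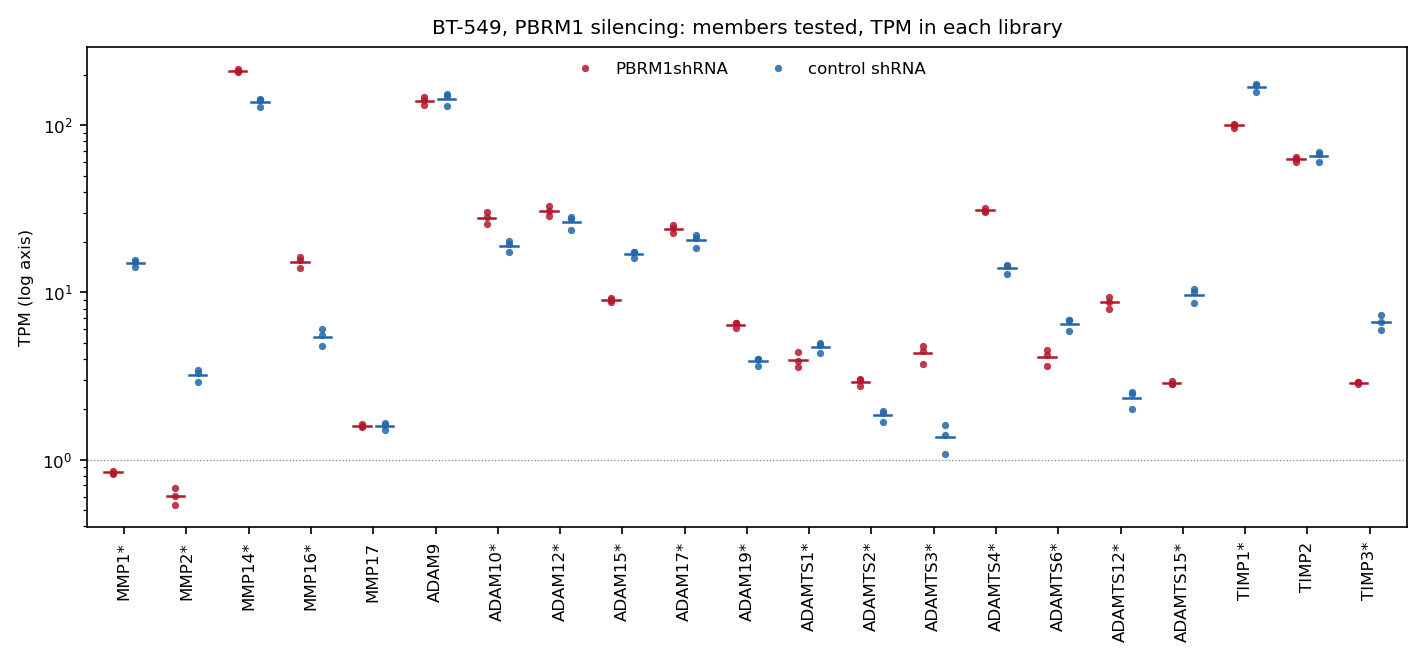
TPM (log axis) of the 21 members tested in the PBRM1 experiment, with PBRM1shRNA libraries left of control shRNA libraries for each gene; points are libraries, bars are means of 3, an asterisk marks a limma adjusted p under 0.05, and the dotted line is 1 TPM. MMP1 and MMP2 lie below 1 TPM in all PBRM1shRNA libraries, and 17 of the 21 genes show no overlap.

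Among the ADAMs, ADAM10, the main sheddase of Notch receptors and cadherins, was at 30.1, 25.8 and 28.2 TPM in PBRM1shRNA cells against 19.4, 17.4 and 20.3 TPM in control cells. The groups did not overlap (log2 fold 0.53 ± 0.087; limma adjusted p = 5.7e-09). ADAM19, which cleaves neuregulins, averaged 6.42 ± 0.260 TPM in silenced and 3.86 ± 0.227 TPM in control cells (log2 fold 0.61 ± 0.087). ADAM17, the TNF-alpha converting enzyme, and ADAM12 rose by less, with a log2 fold of 0.22 ± 0.087 each (limma adjusted p = 0.021 and 0.023). Both calls were lost when any of 3 libraries (silenced replicate 1, silenced replicate 3 or control replicate b) was left out, with an adjusted p of up to 0.14 for ADAM17 and 0.18 for ADAM12. With each gene tested by its own spread, neither passed (adjusted p of 0.11 for ADAM17 and 0.14 for ADAM12). In neither gene did the groups overlap, so any pairing of libraries has both higher in 3 of 3 pairs. With libraries paired by column number as a block, the limma adjusted p was 1.1e-05 for ADAM17 and 1.3e-05 for ADAM12. This pairing was read from these same data, so the block p-values are not separate support for the calls. ADAM15, a disintegrin protease of cell junctions, fell, at 9.23, 8.74 and 8.98 TPM in silenced cells against 17.5, 16.2 and 17.3 TPM in control cells (log2 fold -0.85 ± 0.088). ADAM9, the most abundant ADAM, was not separated as deposited (147, 133 and 142 TPM in silenced against 149, 131 and 153 TPM in control cells).

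Among the ADAMTSs, both tested procollagen N-proteinases rose: ADAMTS3 was at 4.80, 3.75 and 4.45 TPM in PBRM1shRNA cells against 1.41, 1.08 and 1.62 TPM in control cells (log2 fold 1.17 ± 0.082), and ADAMTS2 averaged 2.92 ± 0.142 TPM in silenced and 1.85 ± 0.143 TPM in control cells. Of the 3 tested proteoglycanases, ADAMTS4 (aggrecanase-1) rose and ADAMTS1 and ADAMTS15 fell. ADAMTS4 was at 32.1, 30.7 and 30.1 TPM in silenced against 14.6, 12.8 and 14.5 TPM in control cells (log2 fold 1.10 ± 0.088). ADAMTS15 showed the opposite pattern, at 2.95, 2.81 and 2.83 TPM in silenced against 10.0, 8.65 and 10.4 TPM in control cells (log2 fold -1.46 ± 0.088). For ADAMTS1 the libraries overlapped (log2 fold -0.21 ± 0.086; limma adjusted p = 0.031), and its call was lost in 4 of 6 fits that left out 1 library (silenced replicate 2 or 3, control replicate a or c; adjusted p of up to 0.19). Tested by its own spread, ADAMTS1 did not pass (adjusted p = 0.13). Within pairs of libraries with matching column numbers it was lower in 3 of 3 (limma adjusted p = 3.3e-04 with these pairs as a block). The block p-value is likewise not separate support, since the pairing was read from these data. ADAMTS12, which cleaves cartilage oligomeric matrix protein, had the largest rise of the members, at 9.38, 7.95 and 8.82 TPM in silenced against 2.46, 2.01 and 2.52 TPM in control cells (log2 fold 1.54 ± 0.087). ADAMTS6, related to the fibrillin-associated ADAMTS10, fell by 0.55 on the log2 scale (4.13 ± 0.456 TPM in silenced and 6.51 ± 0.554 TPM in control cells).

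Of the 3 tested inhibitors 2 fell. TIMP1 (chromosome X, 47582313 to 47586789, plus strand) was at 101, 95.9 and 102 TPM in PBRM1shRNA cells against 178, 159 and 174 TPM in control cells (log2 fold -0.76 ± 0.086). TIMP3, which binds matrix and inhibits ADAM17 and aggrecanases as well as MMPs, was at 2.90, 2.84 and 2.89 TPM in silenced against 6.69, 5.93 and 7.32 TPM in control cells (log2 fold -0.97 ± 0.087). In neither gene did the groups overlap. TIMP2, which forms a complex with MMP14 in the activation of pro-MMP2, overlapped (62.7 ± 2.09 TPM in silenced and 65.4 ± 4.28 TPM in control cells), and TIMP4 was at most 0.0615 TPM. The ratio of summed MMP to summed TIMP transcripts, which 1 scaling factor per library does not change, was 1.41 ± 0.047 in silenced and 0.684 ± 0.0028 in control cells (SD, n = 3; exact two-sided permutation p = 0.1, the smallest that 3 against 3 allow). It is 1 of 6 ratios computed in each experiment, and adjusted over them by Benjamini-Hochberg its exact p was 0.1. That ratio rests mainly on MMP14 and TIMP1, whose own ratio was 2.15, 2.21 and 2.03 in PBRM1shRNA libraries and 0.803, 0.807 and 0.819 in control libraries.

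The share of all genes that were higher among those past the test depended on the scaling of TPM in this experiment, being 41.4% as deposited and 30.02%, 57.1% and 56.6% with short noncoding RNAs removed, quantile scaling and median-ratio scaling. The median log2 fold of all genes was -0.05 as deposited, -0.17 with short noncoding RNAs removed, and 0.05 with either other scaling, and that of the members was 0.01, -0.07, 0.19 and 0.08. Relative to that median, the 4 scalings gave log2 folds of -3.74 to -3.02 for MMP1, -0.98 to -0.69 for TIMP1, -1.05 to -0.89 for TIMP3, 0.38 to 0.70 for MMP14 and 1.59 to 1.89 for ADAMTS12. ADAM9 and TIMP2 changed sign between scalings (-0.28 to 0.04 and -0.17 to 0.02). ADAM9 passed the test under 3 of the 4 scalings and TIMP2 under 2, with log2 folds of -0.23 to 0.08 and -0.15 to 0.05 over the 4. With short noncoding RNAs removed both fell with no overlap (log2 folds of -0.13 and -0.15, limma adjusted p of 0.0055 and 0.0015).

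The second comparison asked how silencing of IRF1, a transcription factor of the interferon response, acted in the same line. ADAM19 was lower by the largest margin, MMP1, ADAMTS15 and ADAMTS12 also fell, and ADAM12 rose. Of 16 members tested 1 rose and 4 fell, where 5.76% of all genes rose and 18.5% fell. The median log2 fold was -0.15 over the members and -0.06 over all genes. Groups did not overlap in 7 of 16 members and in 33.9% of all genes, and 0 members were called higher (0 also at an unadjusted limma p under 0.05) and 1 lower (0.0547% and 1.78% of all genes).

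ADAM19 (chromosome 5, 157395534 to 157575775, minus strand) was at 0.446, 0.606 and 0.459 TPM in IRF1shRNA cells against 5.13, 4.19 and 3.69 TPM in control cells. Each silenced library was under 1 TPM, so the gene passed the filter only through the control group, where it was high, and without it 1 member rose and 3 fell of 15. The TPM ratio was 8.61 and the log2 fold -1.82 ± 0.11 (limma adjusted p = 9.3e-04 when fitted with no filter on low values). CYFIP2 and NIPAL4 overlap this gene on the other strand, as SYN1 does TIMP1, SYN3 TIMP3 and MORF4L1 ADAMTS7. The libraries were stranded, but whether counting used strand is not stated. MMP1 was at 1.01, 1.10 and 0.903 TPM in silenced against 3.05, 2.24 and 2.57 TPM in control cells (log2 fold -0.85 ± 0.11; limma adjusted p = 4.7e-13), again with no overlap. ADAMTS15 was at 0.939, 1.18 and 1.10 TPM in silenced against 2.40, 1.88 and 1.87 TPM in control cells (log2 fold -0.55 ± 0.10; limma adjusted p = 2.3e-06), a call that was lost when each gene was tested by its own spread (adjusted p = 0.058). ADAMTS12 averaged 0.877 ± 0.111 TPM in silenced and 1.34 ± 0.206 TPM in control cells (log2 fold -0.31 ± 0.093; limma adjusted p = 0.0049), a call that was lost without silenced replicate 1 or 3 (adjusted p of up to 0.098).

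ADAM12, a sheddase of EGF receptor ligands, was at 9.33, 11.7 and 10.5 TPM in IRF1shRNA cells against 8.69, 7.61 and 7.0 TPM in control cells. The groups did not overlap, and the log2 fold was 0.39 ± 0.15 (limma adjusted p = 0.036). That call was lost in 5 of 6 fits that left out 1 library, all but the one without control replicate 1 (adjusted p of up to 0.19). It was also lost when each gene was tested by its own spread (adjusted p = 0.14). TIMP1 was higher in every silenced library by a small margin (117, 125 and 116 TPM against 116, 89.8 and 104 TPM in control cells) but did not pass the test (log2 fold 0.21 ± 0.15; limma adjusted p = 0.31). TIMP2 had 13.8, 17.4 and 15.1 TPM in silenced and 17.5, 14.5 and 14.3 TPM in control cells, and MMP14 39.6, 45.5 and 39.7 TPM in silenced and 51.4, 45.9 and 40.0 TPM in control cells. Both overlapped. ADAM9 (38.2 ± 5.62 TPM in silenced and 31.9 ± 5.23 TPM in control cells) did not pass the test as deposited but rose under each of the 3 other scalings (log2 fold 0.38 with short noncoding RNAs removed, 0.38 with quantile and 0.32 with median-ratio scaling; limma adjusted p of 3.6e-05, 7.2e-05 and 6.2e-05).

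Many control values were highest in control replicate 1, whose share of short noncoding RNAs was the lowest of the table (84.8%). With short noncoding RNAs removed and the rest rescaled, 30 members passed the filter, 10 rose and 13 fell, and with quantile and median-ratio scaling 5 and 3 rose and 8 and 8 fell. Among all genes past the test 23.7% were higher as deposited and 54.6%, 56.6% and 47.8% under these 3 scalings. On the scale without short noncoding RNAs, TIMP3 averaged 0.508 ± 0.049 TPM in IRF1shRNA cells and 2.98 ± 0.226 TPM in control cells (log2 fold -1.40 ± 0.083). It passed the filter on that scale only through the control libraries, where it was high, and it is among the 13 that fell. No fit without the filter was made on that scale. As deposited TIMP3 was below the filter, at 0.0569, 0.0769 and 0.0542 TPM in silenced against 0.460, 0.347 and 0.386 TPM in control cells. The gelatinases moved in opposite directions on that scale: MMP2 averaged 3.9 ± 0.544 TPM in silenced and 7.65 ± 0.325 TPM in control cells, and MMP9 3.63 ± 0.499 TPM in silenced and 0.867 ± 0.138 TPM in control cells (log2 fold -0.82 ± 0.082 and 1.31 ± 0.097). TIMP1 passed the test on that scale too (log2 fold 0.33 ± 0.066; limma adjusted p = 7.9e-04). MMP9 was chosen after its values were seen. As deposited it was at 0.418, 0.429 and 0.480 TPM in IRF1shRNA cells against 0.117, 0.103 and 0.124 TPM in control cells. With PBRM1shRNA and short noncoding RNAs removed, MMP9 averaged 2.02 ± 0.223 TPM against 0.653 ± 0.367 TPM in control cells (log2 fold 0.89 ± 0.15). There too MMP2 was lower (log2 fold -2.12 ± 0.075). In both experiments MMP9 averaged under 1 TPM in control cells on that scale, so silenced libraries, where it was high, admitted it. The ratio of MMP to TIMP transcripts was 0.362 ± 0.012 in IRF1shRNA cells and 0.465 ± 0.057 in their controls (exact two-sided permutation p = 0.1, adjusted 0.12).

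**Figure D3:**
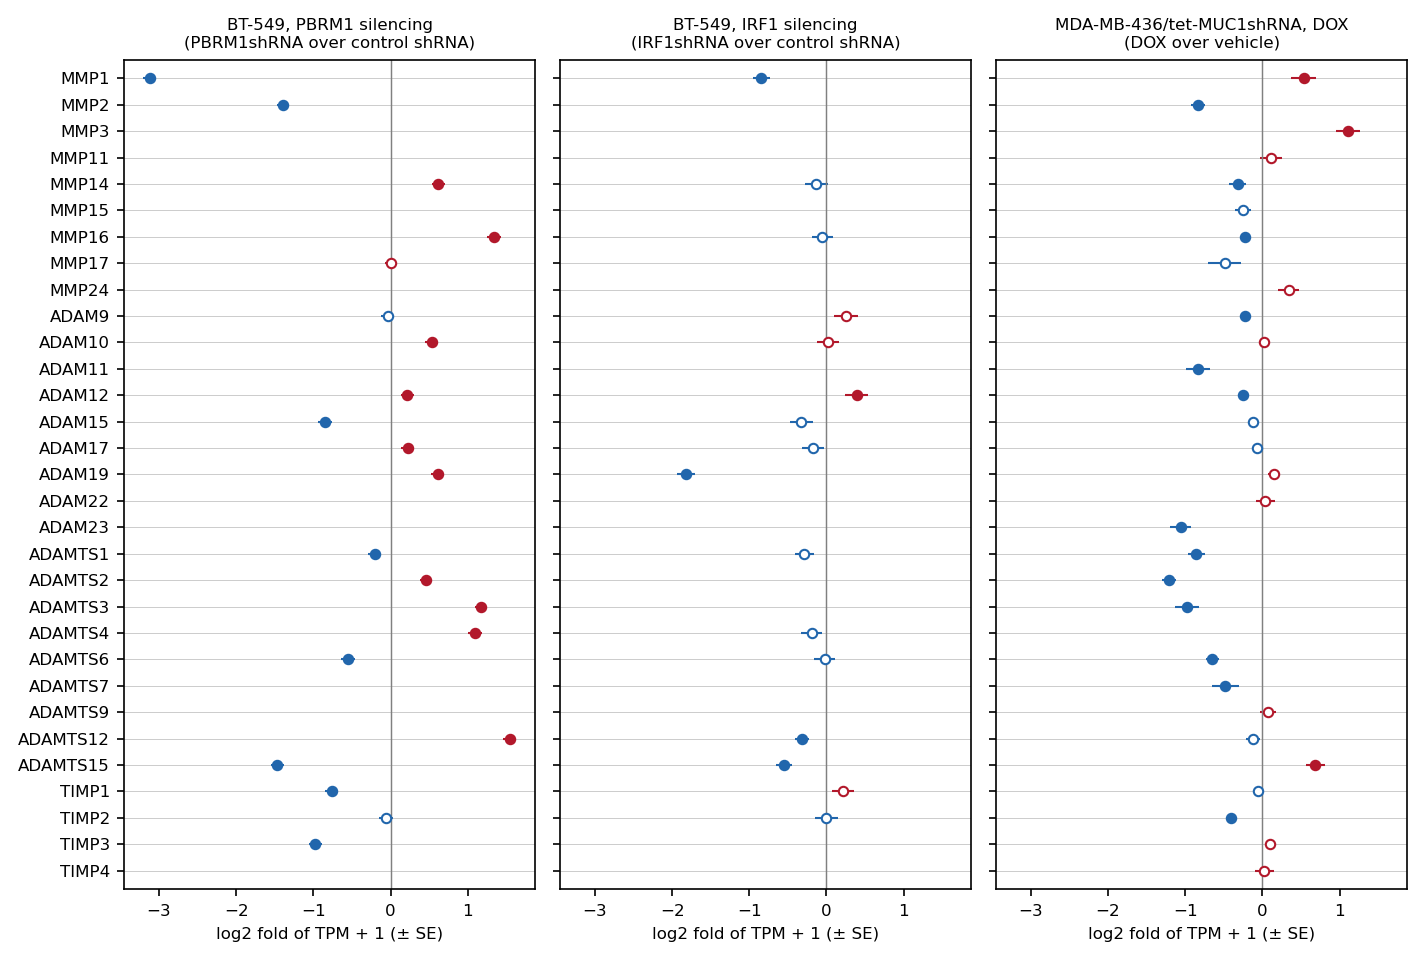
Log2 fold of TPM + 1 with its SE (horizontal axis, the same range in each panel) for the members tested in the PBRM1, IRF1 and MDA-MB-436 experiments, silenced or DOX-treated over control; red is higher, blue lower, filled symbols have a limma adjusted p under 0.05, and an empty row means the gene was not tested there. MMP1 reaches -3.12 in the PBRM1 panel, ADAM19 -1.82 in the IRF1 panel and ADAMTS2 -1.21 in the MDA-MB-436 panel.

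PBRM1 silencing and IRF1 silencing were then set against each other in one fit of the 12 BT-549 libraries, in which the effect of PBRM1shRNA minus that of IRF1shRNA was tested for each gene. Of 16 members tested in both experiments, 12 differed, 7 with a more positive effect of PBRM1shRNA and 5 with a more negative one, where 41.2% of all genes differed in either direction. Each experiment has its own controls, but the differences on log2(TPM + 1) moved with scaling: with short noncoding RNAs removed that of ADAM19 was 3.33 in place of 2.43, and that of ADAMTS6 -0.80 in place of -0.53. ADAM19 differed most, with log2 folds of 0.61 for PBRM1shRNA and -1.82 for IRF1shRNA (difference 2.43 ± 0.14). ADAMTS12 also went opposite ways, at 1.54 for PBRM1shRNA and -0.31 for IRF1shRNA (difference 1.86 ± 0.13). MMP1 fell in both (log2 folds of -3.12 and -0.85), and differed by -2.27 ± 0.14. MMP1 was admitted in the PBRM1 table, and ADAM19 in the IRF1 table, only through control libraries. With no filter on low values the differences of both passed as well (limma adjusted p of 2.3e-07 and 3.8e-07). That of ADAMTS15 (-0.91 ± 0.14) also passed. TIMP1 differed by -0.98 ± 0.16 (limma adjusted p = 3.8e-08), ADAM15 by -0.53 ± 0.16 and ADAMTS6 by -0.53 ± 0.15.

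More positive effects of PBRM1shRNA were found for MMP16 (1.39 ± 0.16), ADAMTS4 (1.28 ± 0.16), MMP14 (0.75 ± 0.17; limma adjusted p = 4.3e-05) and ADAM10 (0.51 ± 0.16; limma adjusted p = 0.0060). ADAM17 passed by little (0.39 ± 0.16; limma adjusted p = 0.040), and its call was lost in 8 of 12 fits that left out 1 library, with an adjusted p of up to 0.12; it held without silenced replicate 2 or control replicate c of the PBRM1 experiment and without silenced replicate 2 or control replicate 3 of the IRF1 experiment. ADAM9 differed by -0.29 ± 0.17, ADAM12 by -0.17 ± 0.16, TIMP2 by -0.06 ± 0.17 and ADAMTS1 by 0.08 ± 0.14, and none of these 4 passed. With short noncoding RNAs removed, ADAM9, ADAM12 and TIMP2 differed as well (limma adjusted p of 1.9e-06, 3.5e-05 and 2.9e-04).

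**Figure D4:**
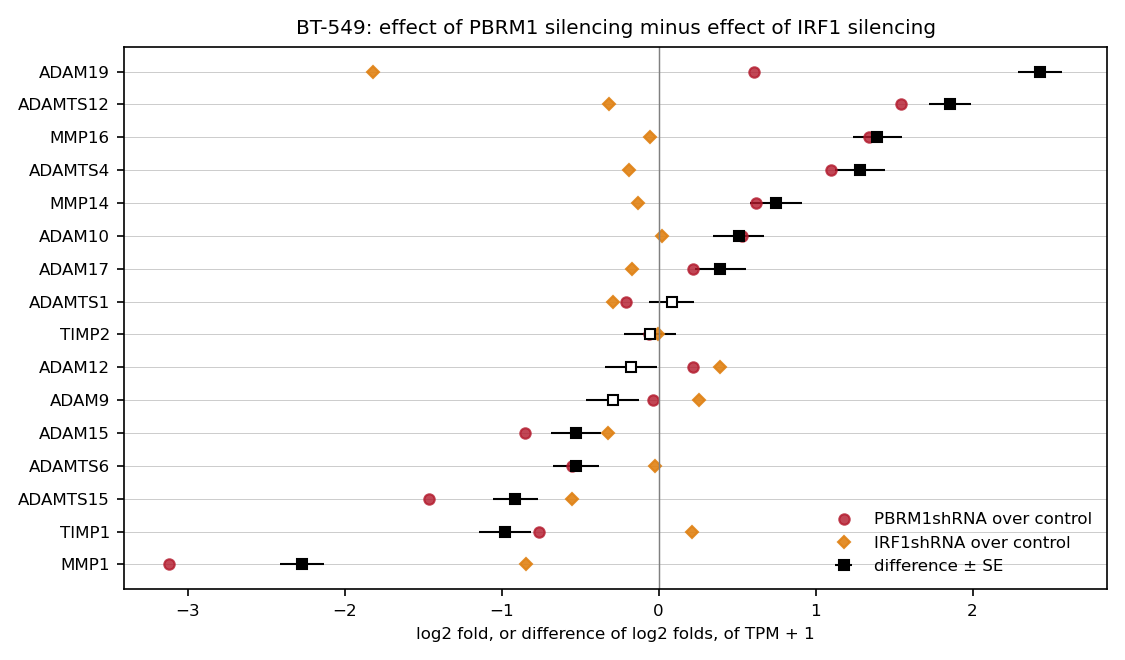
Log2 folds of TPM + 1 in BT-549 cells for PBRM1shRNA over control (red circles) and IRF1shRNA over control (orange diamonds), and the first minus the second with its SE (black squares, filled where the limma adjusted p is under 0.05), for the 16 members tested in both. ADAM19 and ADAMTS12 have effects on opposite sides of 0 and the largest positive differences (2.43 and 1.86), and MMP1 has the most negative one (-2.27).

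The third comparison took up DOX-induced silencing of MUC1, a transmembrane mucin, in MDA-MB-436 cells. Procollagen N-proteinases, the gelatinase MMP2, TIMP2 and the catalytically inactive ADAM11 and ADAM23 fell, and MMP3, MMP1 and ADAMTS15 rose. Of 30 members tested 3 rose and 13 fell, where 27.0% of all genes rose and 23.4% fell. The median log2 fold was -0.18 over the members and 0.02 over all genes, and under the 3 other scalings it stayed between -0.20 and -0.19 over the members. In 21 of 30 members the groups did not overlap, as in 59.2% of all genes. With the further condition of a fold above 2, 1 member (MMP3) was called higher and 2 lower (1.34% and 1.35% of all genes). ADAM11, ADAMTS3, ADAMTS7 and MMP17 passed the filter only through vehicle libraries, and MMP3 and MMP24 only through DOX libraries. Each was admitted by the group where it was high, and without these 6 members 2 rose and 10 fell of 24. For ADAM11, ADAMTS3, ADAMTS7 and MMP3, the p given below is from a fit with no filter on low values.

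MMP3 (stromelysin-1, which activates procollagenases; chromosome 11, 102835801 to 102843803, minus strand) was at 2.82, 2.60 and 2.47 TPM with DOX against 0.996, 0.567 and 0.511 TPM with vehicle. All DOX libraries were higher (log2 fold 1.11 ± 0.15; limma adjusted p = 8.7e-04 with no filter). Its neighbour MMP1 was at 2.67, 3.05 and 1.87 TPM with DOX against 1.60, 1.14 and 1.5 TPM with vehicle (log2 fold 0.54 ± 0.16; limma adjusted p = 0.021), a call that was lost without DOX replicate 1 or 2 or vehicle replicate 2 (adjusted p of up to 0.080). Both belong to 9 MMP genes that lie within 435.2 kb on chromosome 11 (102520508 to 102955734). Of the other 7, MMP7 reached 1.59 TPM, MMP12 0.844 TPM and MMP10 0.571 TPM at most in any library. WTAPP1, annotated on the other strand, overlaps MMP1, MMP3 and MMP10. MMP2 was at 5.28, 5.63 and 4.57 TPM with DOX against 9.71, 9.76 and 10.3 TPM with vehicle (log2 fold -0.83 ± 0.088; limma adjusted p = 7.8e-05). The groups were far apart. Among membrane-type MMPs, MMP16 (21.7 ± 0.861 TPM with DOX and 25.7 ± 0.736 TPM with vehicle; limma adjusted p = 0.0061) and MMP14 (2.91 ± 0.379 and 3.88 ± 0.074 TPM; limma adjusted p = 0.035) fell, the second call being lost in 5 of 6 fits that left out 1 library, all but the one without DOX replicate 3 (adjusted p of up to 0.12). MMP15, MMP17 and MMP24 did not pass the test.

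**Figure D5:**
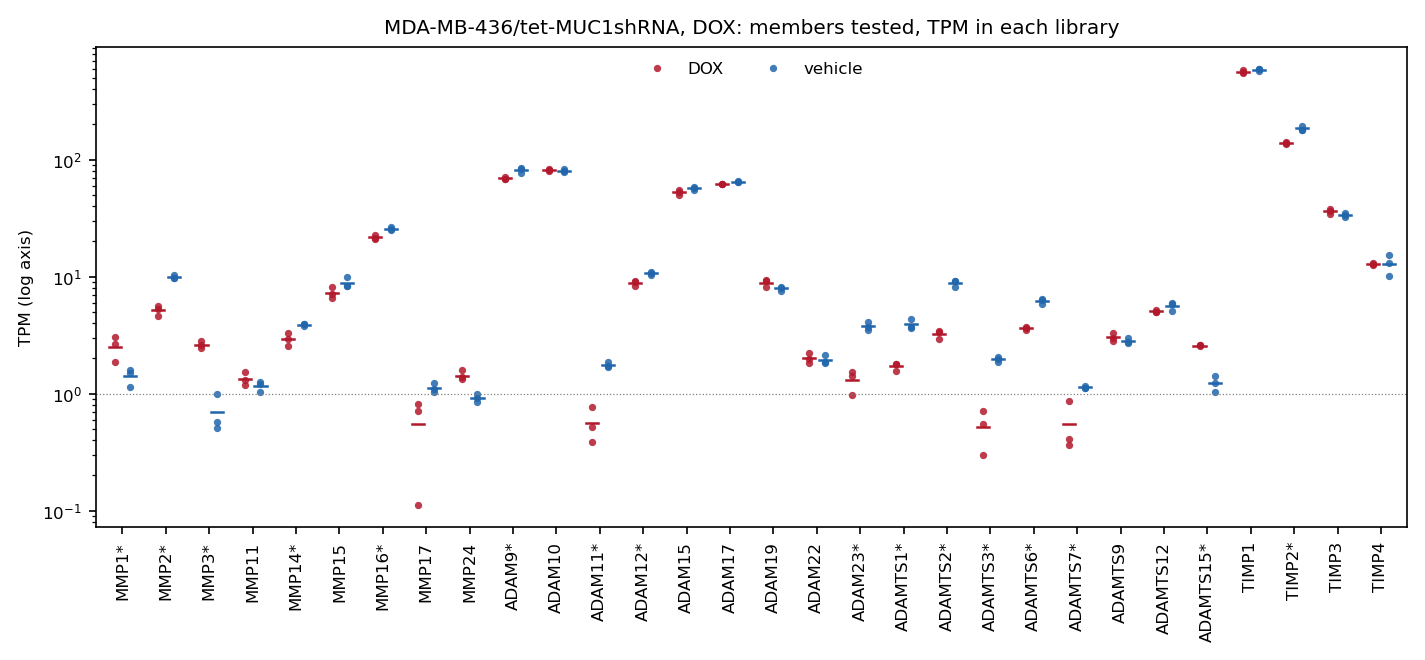
TPM (log axis) of the 30 members tested in MDA-MB-436/tet-MUC1shRNA cells, with DOX libraries left of vehicle libraries for each gene; points are libraries, bars are means of 3, an asterisk marks a limma adjusted p under 0.05, and the dotted line is 1 TPM. MMP3 is the clearest rise (2.63 against 0.691 TPM on average), and TIMP1 stays the highest gene in both groups.

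ADAMTS2, a procollagen N-proteinase (chromosome 5, 179110851 to 179345430, minus strand), was at 3.45, 3.36 and 2.95 TPM with DOX against 8.22, 9.15 and 9.13 TPM with vehicle. Every DOX library was below every vehicle library (log2 fold -1.21 ± 0.091; limma adjusted p = 1.1e-05). ADAMTS3 of the same subfamily averaged 0.522 ± 0.209 TPM with DOX and 1.97 ± 0.100 TPM with vehicle (log2 fold -0.98 ± 0.16; limma adjusted p = 0.0011 with no filter). The proteoglycanase ADAMTS1 was at 1.78, 1.78 and 1.57 TPM with DOX against 3.67, 4.31 and 3.74 TPM with vehicle (log2 fold -0.85 ± 0.11; limma adjusted p = 2.8e-04), whereas ADAMTS15 was at 2.59, 2.60 and 2.55 TPM with DOX against 1.24, 1.03 and 1.42 TPM with vehicle (log2 fold 0.69 ± 0.13; limma adjusted p = 0.0019). In neither did the groups overlap. ADAMTS6 fell by 0.65 on the log2 scale (3.61 ± 0.126 TPM with DOX and 6.22 ± 0.326 TPM with vehicle). ADAMTS7, which has a near-identical pseudogene, passed by little (0.547 ± 0.282 TPM with DOX and 1.13 ± 0.025 TPM with vehicle; limma adjusted p = 0.029 with no filter and 0.047 with the filter) and lost its call in 5 of 6 fits that left out 1 library, all but the one without DOX replicate 2 (adjusted p of up to 0.14).

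The adhesion receptors ADAM23 and ADAM11, ligand partners of LGI proteins in neurons, were low in these cells and fell. ADAM23 was at 1.41, 0.968 and 1.52 TPM with DOX against 4.06, 3.73 and 3.5 TPM with vehicle (log2 fold -1.06 ± 0.13; limma adjusted p = 2.2e-04), and ADAM11 averaged 0.558 ± 0.200 TPM with DOX and 1.76 ± 0.088 TPM with vehicle (limma adjusted p = 0.0016 with no filter). Their relative ADAM22 had 2.02 ± 0.198 TPM with DOX and 1.95 ± 0.170 TPM with vehicle and did not pass. Of the active sheddases, ADAM9 (69.2 ± 1.27 TPM with DOX and 81.4 ± 4.15 TPM with vehicle; log2 fold -0.23 ± 0.046; limma adjusted p = 0.0028) and ADAM12 (8.86 ± 0.513 and 10.7 ± 0.334 TPM; limma adjusted p = 0.018) were lower by small margins. ADAM12 lost its call without DOX replicate 1 or vehicle replicate 3 (adjusted p of up to 0.069). ADAM10 was level, at 83.6, 82.1 and 79.7 TPM with DOX and 78.0, 84.0 and 79.2 TPM with vehicle. ADAM17 (61.8 ± 0.146 TPM with DOX and 64.9 ± 1.07 TPM with vehicle) and ADAM15 (52.5 ± 2.61 and 57.1 ± 1.87 TPM) did not pass the test although their groups did not overlap.

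TIMP2 was the inhibitor that changed. It was at 136, 139 and 142 TPM with DOX against 194, 180.5 and 181 TPM with vehicle, with no overlap (log2 fold -0.41 ± 0.039; limma adjusted p = 4.5e-05). TIMP1 was at 586, 559 and 548.6 TPM with DOX and 598, 592 and 570.1 TPM with vehicle (log2 fold -0.06 ± 0.036; limma adjusted p = 0.23). TIMP3 averaged 36.1 ± 1.55 TPM with DOX and 33.6 ± 1.41 TPM with vehicle and TIMP4 12.9 ± 0.249 and 12.8 ± 2.67 TPM, and neither passed. The ratio of MMP to TIMP transcripts was 0.0635 ± 0.0052 with DOX and 0.0682 ± 0.0027 with vehicle (exact two-sided permutation p = 0.3, adjusted 0.36). MMP2 over TIMP2 was 0.0387, 0.0406 and 0.0322 with DOX and 0.0501, 0.0541 and 0.0570 with vehicle (exact two-sided permutation p = 0.1, adjusted 0.15).

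Set side by side, the lines and perturbations gave different values for the same genes; the PBRM1 and MUC1 experiments differ in line, vector and table, and no difference between them was tested. ADAMTS3 had a log2 fold of 1.17 with PBRM1shRNA and of -0.98 with DOX, and ADAMTS2 of 0.46 and -1.21. MMP1 and ADAMTS15, which fell with both stable hairpins in BT-549, had positive folds with DOX (0.54 and 0.69). MMP2 fell with PBRM1shRNA and with DOX (-1.39 and -0.83), as did ADAMTS6 (-0.55 and -0.65) and ADAMTS1 (-0.21 and -0.85). Of 10 members past the test in both experiments, these 3 went the same way and 7 went opposite ways. That count was not made over all genes, so it is not read as a trait of the members. It includes MMP1 and MMP2, admitted in the PBRM1 experiment only through control libraries, and ADAMTS3, admitted with DOX only through vehicle libraries. It also includes calls lost in fits that left out 1 library. These are ADAM12 in both experiments, ADAMTS1 with PBRM1shRNA, and MMP1 and MMP14 with DOX.

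The 38 members tested in no table were listed at low values. In all, 5 (ADAM2, ADAM6, ADAM7, MMP26 and MMP27) were at 0 in every library, and ADAM5, ADAM6 and MMP23A are annotated as pseudogenes. The collagenases MMP8 and MMP13 were at most 0.145 TPM. Some members passed the filter in 1 line only. Within the MDA-MB-436 table TIMP4 was at 10.1 to 15.4 TPM, ADAMTS9 at 2.72 to 3.28 TPM and ADAM22 at 1.82 to 2.23 TPM, while ADAMTS4 was at most 0.0832 TPM. The tables are scaled differently, so these levels are not set against those in BT-549.

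Promoter windows of RefSeq (GRCh38.p14; 250 bases before to 50 after each start) were matched by symbol for 39 of the 69 members, 19 of them among the 31 tested. ADAM11, ADAM9, ADAMTS1, ADAMTS15, ADAMTS4, ADAMTS9, MMP1, MMP16, MMP17, MMP2, MMP3 and TIMP2 had no entry. The core of an interferon-stimulated response element (GAAA repeated after a gap of 2 bases, searched on both strands) was in the windows of 0 of the 39 members, against 3.57% of 35116 promoters. A loose AP-1 pattern (TGANTCA, which allows any middle base and reads the same on both strands) was in those of 4 members, against 7.71% of all promoters. AP-1 is the factor by which collagenase promoters are best known, and the stretches around the 4 matches are shown because ADAMTS12 is the tested member that carries the letters and the other 3 lie in the chromosome 11 cluster beside MMP1 and MMP3. Capitals mark the letters that match the loose pattern, with middle base A in ADAMTS12, MMP10 and MMP20 and G in MMP7. Each stretch is upstream of the start, written 5′ to 3′ on the gene's strand.
ADAMTS12 (chr5:33892038-33892104, minus strand): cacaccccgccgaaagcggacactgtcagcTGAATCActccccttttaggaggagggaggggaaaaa
MMP10 (chr11:102780659-102780725, minus strand): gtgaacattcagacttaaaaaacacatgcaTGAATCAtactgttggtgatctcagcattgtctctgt
MMP7 (chr11:102530778-102530844, minus strand): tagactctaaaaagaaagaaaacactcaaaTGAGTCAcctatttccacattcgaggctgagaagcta
MMP20 (chr11:102625408-102625474, minus strand): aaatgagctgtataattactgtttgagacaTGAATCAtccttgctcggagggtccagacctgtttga

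The match begins 67 bases before the start in both MMP10 and MMP7, 84 bases before it in ADAMTS12 and 112 bases before it in MMP20. A match is a description of the sequence, and binding was not measured. Genes of AP-1 and ETS factors were counted as a list of their own, and no relation to the matches was tested. With PBRM1shRNA 12 of 13 tested fell and 1 rose, where 34.8% of all genes fell and 24.6% rose (FOSL1 at 32.0 ± 0.212 TPM in silenced and 57.5 ± 3.55 TPM in control cells; ETS2 at 3.84 ± 0.290 and 12.1 ± 1.08 TPM). Their median log2 fold was -0.39, against -0.05 over all genes. In the IRF1 experiment 6 of 11 fell and 0 rose (0 also at an unadjusted limma p under 0.05), where 18.5% of all genes fell and 5.76% rose, and FOSL1 was among those that fell (log2 fold -0.74 ± 0.15). With DOX 6 of 14 fell and 4 rose, where 23.4% of all genes fell and 27.0% rose, with FOSL1 at 361 ± 9.85 TPM against 589 ± 24.1 TPM with vehicle and the epithelial ETS factor ELF3 at 16.3 ± 0.18 TPM against 3.70 ± 0.322 TPM.

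Genes that act with the proteases were grouped in 5 further lists. Their counts stand beside those of all genes tested, of which 24.6% rose and 34.8% fell with PBRM1shRNA, 5.76% and 18.5% with IRF1shRNA, and 27.0% and 23.4% with DOX, at median log2 folds of -0.05, -0.06 and 0.02. Of 21 activators and membrane partners, 5 of 14 tested rose and 4 fell with PBRM1shRNA, 0 of 12 rose (0 also at an unadjusted limma p under 0.05) and 3 fell with IRF1shRNA, and 5 of 17 rose and 4 fell with DOX (median log2 folds of -0.04, -0.17 and -0.06). PLAU (urokinase, which generates plasmin) fell with IRF1shRNA, to 11.5 ± 1.43 TPM against 29.9 ± 4.98 TPM in control cells, and with DOX, to 121 ± 6.29 TPM against 249 ± 7.05 TPM with vehicle. Its receptor PLAUR rose with PBRM1shRNA (29.5 ± 2.59 TPM against 15.6 ± 1.42 TPM in control cells) and fell with DOX (16.6 ± 0.222 TPM against 22.4 ± 0.577 TPM with vehicle). The tetraspanin CD9, an ADAM partner, fell in both BT-549 experiments, to 22.1 ± 0.447 TPM with PBRM1shRNA against 39.2 ± 2.80 TPM and to 10.7 ± 1.44 TPM with IRF1shRNA against 21.3 ± 1.91 TPM, each in its own control cells.

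Among 20 other inhibitors and clearance receptors, 8 of 13 tested fell and 2 rose with PBRM1shRNA (median log2 fold -0.48), 7 of 11 fell and 0 rose with IRF1shRNA (0 also at an unadjusted limma p under 0.05; median -0.58), and 6 of 11 fell and 3 rose with DOX (median -0.19). LRP1, the endocytic receptor that clears MMPs and ADAMTSs, fell to 8.71 ± 0.710 TPM with PBRM1shRNA against 16.3 ± 1.60 TPM in control cells, and to 4.19 ± 0.306 TPM with DOX against 7.74 ± 0.346 TPM with vehicle. The cysteine protease inhibitor CST3 fell most in PBRM1shRNA cells (4.78 ± 0.152 TPM against 25.3 ± 1.23 TPM in control cells), and the Kunitz-type inhibitor TFPI2 rose there (20.7 ± 0.526 TPM against 9.92 ± 1.28 TPM).

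Other surface or extracellular metalloproteases rose in 2 and fell in 5 of 10 tested with PBRM1shRNA, rose in 3 and fell in 3 of 10 with IRF1shRNA, and rose in 4 and fell in 3 of 9 with DOX, with median log2 folds of -0.18, -0.02 and 0.07. MME (neprilysin) was at 1.74 ± 0.057 TPM in PBRM1shRNA cells against 11.8 ± 0.678 TPM in control cells. ANPEP (aminopeptidase N) fell to 41.4 ± 4.08 TPM with IRF1shRNA against 77.3 ± 9.18 TPM in control cells, and to 186 ± 2.40 TPM with DOX against 317 ± 9.81 TPM with vehicle. PAPPA2, which cleaves IGF-binding proteins, fell with PBRM1shRNA (0.864 ± 0.142 TPM against 4.31 ± 0.494 TPM in control cells) and rose with IRF1shRNA (1.60 ± 0.213 TPM against 0.824 ± 0.155 TPM). In each experiment its lower group averaged under 1 TPM, so PAPPA2 was admitted by the group where it was high. The counts above include it.

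Of 25 proteins known to be shed by ADAMs, 7 of 16 tested rose and 6 fell with PBRM1shRNA, 1 of 11 rose and 1 fell with IRF1shRNA, and 4 of 21 rose and 13 fell with DOX (median log2 folds of 0.09, -0.03 and -0.22). AREG, an EGF receptor ligand released by ADAM17, fell to 0.282 ± 0.075 TPM in PBRM1shRNA cells against 2.33 ± 0.178 TPM in control cells, and rose to 16.9 ± 3.13 TPM with DOX against 1.29 ± 0.805 TPM with vehicle. In the PBRM1 experiment AREG passed the filter only through its control libraries, where it was high, and the count above includes it. HBEGF, another ligand, rose with PBRM1shRNA (9.66 ± 0.352 TPM against 4.85 ± 0.578 TPM in control cells). APP, the amyloid precursor cut by ADAM10, was at 109 ± 1.47 TPM with DOX against 229 ± 6.77 TPM with vehicle, and SDC1 (syndecan-1) at 3.98 ± 0.303 TPM with IRF1shRNA against 10.1 ± 1.23 TPM in control cells.

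The matrix substrates form the last list. With PBRM1shRNA 10 of 12 tested fell and 2 rose (median log2 fold -0.84), with IRF1shRNA 3 of 9 fell and 0 rose (0 also at an unadjusted limma p under 0.05; median -0.24), and with DOX 3 of 11 fell and 6 rose (median 0.39). COL4A2, a basement membrane collagen, fell to 31.2 ± 1.0 TPM with PBRM1shRNA against 115 ± 6.77 TPM in control cells, fell to 16.9 ± 2.23 TPM with IRF1shRNA against 26.6 ± 2.85 TPM, and rose to 20.6 ± 0.191 TPM with DOX against 12.4 ± 0.391 TPM with vehicle. COL3A1, a substrate of the procollagen N-proteinases, fell with PBRM1shRNA (28.5 ± 1.81 TPM against 78.4 ± 5.43 TPM in control cells) and with DOX (0.726 ± 0.077 TPM against 2.62 ± 0.365 TPM with vehicle). In the DOX experiment COL3A1 passed the filter only through vehicle libraries, where it was high, and the count above includes it. The laminin chain LAMB3 rose with DOX, to 28.5 ± 0.034 TPM against 10.5 ± 0.785 TPM with vehicle.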

How the data were processed

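Total RNA of BT-549 and MDA-MB-436 cells grown in triplicate was sequenced from stranded, poly(A)-selected libraries. STAR, DESeq2 and GRCh38 are named in the submitters' processing notes, while for annotation, counter and TPM program nothing is named in the sources used here. As deposited by the authors, 3 tables hold TPM, scaled to a fixed total over all genes listed, and 3 hold DESeq2 results. Of these the mean normalized count, a signal averaged by the authors over a table, was the single column read, and their fold changes and p-values were not used. TPM keeps no read depth, so that depth per library is unknown, and intervals for counting error were not made.

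Each table was fitted alone with limma 3.58.1 in R 4.3.3 (lmFit, eBayes with trend) on log2(TPM + 1), for genes with at least 1 TPM in at least 3 of 6 libraries (10639, 9135 and 13229 genes). The prior degrees of freedom came out infinite for PBRM1 and IRF1, so that SEs there follow the expression level, and at 4.98 for MUC1. The script was tested on simulated data. In the PBRM1 table the control columns match no single sample label and are called a, b and c. Libraries whose column names end in the same number deviated together there (r = 0.455, 0.309 and 0.290). On that ground alone these numbers were used as pairs in the replicate block. No label pairs the libraries, and what the numbers stand for is not stated. Named were members past the test, every TIMP, members averaging at least 10 TPM in a group, and up to 4 genes per list with the largest folds past the test; other members named were added after their values were seen. Members, lists and tests were chosen with earlier results of these data known. Gene coordinates are from GENCODE v29 (GRCh38). Alternatives were other scalings, pseudocounts, filters and fits, and each library left out in turn. Some genes of the lists are counted but not reported here by name.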

Additional observations from a re-analysis of the deposited data

Results flagged for a closer look

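The effects of PBRM1shRNA and IRF1shRNA in BT-549 cells differed in sign, past the test in both experiments and in the test of the difference itself, for 2 members. For ADAM19 the difference was 2.43 on the log2 scale, and for ADAMTS12 it was 1.86. ADAM19 was at 6.42 TPM with PBRM1shRNA against 3.86 TPM in control cells and at 0.504 TPM with IRF1shRNA against 4.34 TPM in control cells. In the IRF1 table it passed the filter only through the control libraries, where it was high. With no filter on low values the difference was again 2.43 (limma adjusted p = 3.8e-07). ADAMTS12 was at 8.72 against 2.33 TPM with PBRM1shRNA and at 0.877 against 1.34 TPM with IRF1shRNA. Its fall with IRF1shRNA did not pass the test under 5 of 14 alternatives (no filter, each gene by its own spread, the replicate block, and without silenced replicate 1 or 3), with an adjusted p of 0.079 to 0.13 in these limma fits.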

How the results depend on the processing

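Some members past the test kept direction and call under every alternative in which they were tested. They were 15 of 18 in the PBRM1 experiment, 2 of 5 in the IRF1 experiment and 12 of 16 in the MUC1 experiment. Among them, ADAMTS2, ADAMTS3, MMP2 and TIMP3 in the PBRM1 experiment were not tested at a mean of at least 5 TPM. The same holds for ADAM19 and MMP1 in the IRF1 experiment. In the MUC1 experiment it holds for ADAM11, ADAM23, ADAMTS1, ADAMTS3, ADAMTS6, ADAMTS15 and MMP3. Counts moved most with the filter and, in BT-549, with scaling. Members that fell with PBRM1shRNA numbered 8, against 15 with no filter, 5 at a mean of at least 5 TPM and 14 with short noncoding RNAs removed. With IRF1shRNA 1 rose and 4 fell. No filter gave 5 and 11, short noncoding RNAs removed 10 and 13, quantile scaling 5 and 8, median-ratio scaling 3 and 8, each gene by its own spread 0 and 2, and a mean of at least 5 TPM left 0 lower. Without 1 library 0 to 2 rose (2 without control replicate 1, 0 without any other). With DOX 3 rose and 13 fell, against 6 higher with no filter, and 0 higher and 6 lower at a mean of at least 5 TPM. In the test of the difference 7 higher and 5 lower became 3 and 2 at that mean and 11 and 11 with short noncoding RNAs removed, with 16 lower with no filter and 8 lower with quantile scaling. ADAM9 in the PBRM1 experiment reversed to 0.0763 with median-ratio scaling, and TIMP2 in the IRF1 experiment to 0.12 with short noncoding RNAs removed and 0.12 with quantile scaling. The filters change which genes are tested, and for the scalings the cause was not tested.

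A replicate block, added for PBRM1 after seeing the data, changed no member's call there. Numbers did not pair the IRF1 or MUC1 libraries (same-number r of -0.209, 0.085 and 0.228, and of 0.053, -0.036 and 0.006). With the replicate block 0 members rose and 3 fell with IRF1shRNA, 3 rose and 11 fell with DOX, and with the block and median-ratio scaling, also added later, 3 rose and 8 fell with IRF1shRNA. Array weights were not run for both BT-549 experiments and the test of the difference, where the estimate did not converge. Depth per library is unknown, so low TPM values cannot be given a counting error.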
